A study of Mus musculus with 8 samples.

Results

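The contractile proteins that heart muscle swaps between fetal and adult life were followed through 10 genes: the myosin heavy chain genes Myh6, Myh7 and Myh7b, the sarcomeric actin genes Acta1 and Actc1, the troponin I genes Tnni1 and Tnni3, and the myosin light chain genes Myl2, Myl4 and Myl7. The members were chosen by name, and each matched 1 row of the deposited table, which makes 10 of 56748 genes. All 10 passed the filter on low counts. The samples were polyA RNA libraries from whole hearts of male and female mice aged 3 to 4 months, of a strain that the labels spell C56BL. Every mouse had undergone transverse aortic constriction, a banding of the aorta that loads the left ventricle with pressure, and was sampled at day 56. Animals with a carotid flow ratio under 3 or over 25 were left out by the submitters.

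The 4 CRE hearts (numbers 1, 2, 3 and 5) served as controls and carried Cre recombinase driven by the aMHC promoter, that of the alpha myosin heavy chain gene. In the 4 CS7KO hearts (numbers 1 to 4) the same Cre had excised Smad7, an inhibitor of TGF-beta signalling, in cardiomyocytes. Both groups therefore carried Cre under the promoter of Myh6, 1 of the members, and both were banded, so no unbanded or Cre-free level was available. In each group numbers 1 and 2 were labelled male and the others female. The comparison asks how loss of Smad7 in cardiomyocytes bears on the isoform make-up of the pressure-loaded heart.

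Myosin heavy chains are the motors of the thick filament. The adult mouse ventricle runs mainly on the fast alpha chain encoded by Myh6, while the slower beta chain encoded by Myh7 prevails in the fetal ventricle and returns under pressure load. Alpha skeletal actin (Acta1) and slow skeletal troponin I (Tnni1) are likewise more abundant in the fetal than in the adult ventricle, where cardiac actin (Actc1) and cardiac troponin I (Tnni3) take over. Myl2 encodes the ventricular regulatory light chain, Myl7 its atrial counterpart, and Myl4 the atrial and fetal essential light chain, whose ventricular counterpart is Myl3.

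Libraries held 16476420 to 40181492 counts, and the 10 genes together took 0.625% to 3.97% of them. Mitochondrially encoded genes took 15.04% to 69.8% of counts in CRE, with 69.8% in CRE 5 and 41.1% in CRE 3, against 20.2% to 24.9% in CS7KO. CRE 1 stood apart otherwise: it had 537 genes with 1 to 9 counts where the others had 5848 to 19697, and its short genes lay 1.32 above its long genes in median centred log2 CPM (counts scaled to a common library total), against −0.50 to 0.08 elsewhere. Values are given in library order, controls CRE 1, 2, 3 and 5 first and knockouts CS7KO 1 to 4 second. Smad7 itself was measured at 17.6, 25.5, 25.2 and 45.4 CPM in the controls and at 19.8, 13.3, 27.8 and 12.3 CPM in the knockouts. The groups overlapped, with a log2 fold change of CS7KO over CRE of −0.59 (SE 0.34, edgeR adjusted p = 0.509). The count covers the whole gene in all cells of the heart, and the sources used here do not name the excised exons.

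Per kilobase of gene, the members formed a high and a low tier. The length is the table's gene length, which exceeds that of the transcript unevenly. It is 2063 bases for Tnni3, 1950 for Myl2 and 1536 for Acta1. Their longest protein-coding transcripts in the GENCODE M21 annotation have 912, 889 and 1446 bases. For Tnni1 the lengths are 3600 and 1150, and for Myl7 both are 590. The order within a tier therefore depends on the length used. In CRE the order of mean level was Myl2 at 2963 CPM per kb, Actc1 at 2636, Acta1 at 1896, Tnni3 at 1603, Myh6 at 1012, Myh7 at 76.8 and Myh7b at 11.9, with Myl4, Myl7 and Tnni1 at 0.721, 0.607 and 0.505 CPM per kb. The ranges of the first 5 overlapped from neighbour to neighbour, as did those of Myh7 with Myh7b and of the last 3, while Myh6 lay above Myh7 and Myh7b above Myl4 without overlap. In CS7KO the order was Actc1 at 3761 CPM per kb, Myl2 at 2710, Myh6 at 1951, Acta1 at 1503, Tnni3 at 887, Myh7 at 318, Myh7b at 6.20, Myl7 at 1.30, Myl4 at 0.881 and Tnni1 at 0.381. There Tnni3 and Myh7, Myh7 and Myh7b, and Myl4 and Tnni1 were apart from each other over all 4 libraries, and the other neighbours overlapped. So Myh6 was the fifth in the controls and the third in CS7KO, and the fetal forms Tnni1 and Myl4 stayed among the lowest 3 in both.

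**Figure D1:**
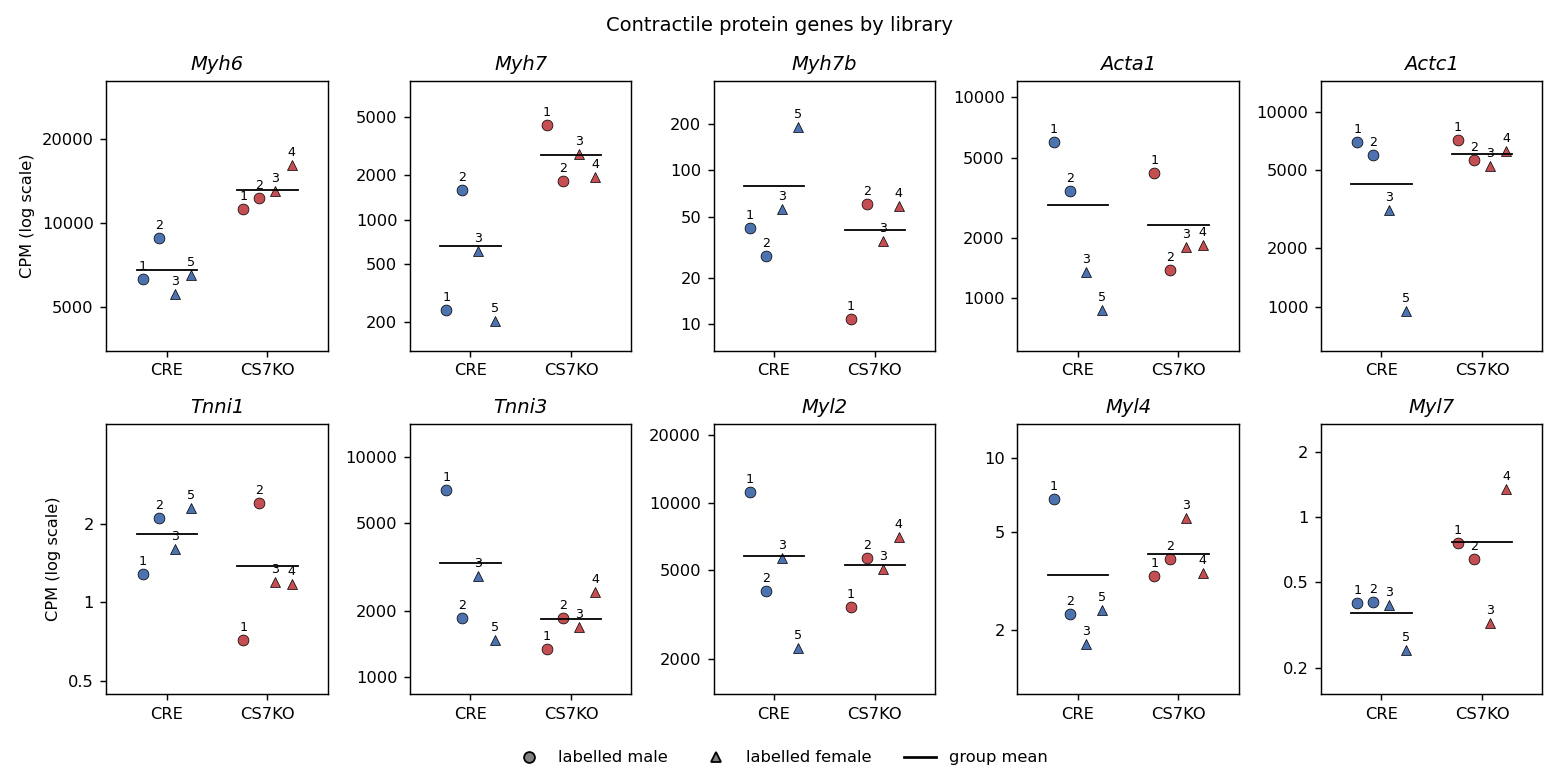
Normalised level in CPM (log axes) of each gene in each of the 8 libraries, with library numbers beside the points, circles for hearts labelled male, triangles for female, and lines at the group means. The CS7KO libraries lie above all CRE libraries for Myh6 and Myh7 and overlap them for the other 8 genes.

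Myh6 and Myh7 were the members whose groups did not overlap, with CS7KO higher for both. Among all 16002 genes tested, 10.3% had groups that did not overlap and 6.24% had all CS7KO libraries above all CRE libraries. Neither gene passed the test with adjustment over all genes, in which 0 of the 10 members and 6 genes in all passed (0.0375%), 3 higher and 3 lower in CS7KO (0.0187% each way). At an unadjusted p under 0.05 there was 1 member, Myh7, against 12.6% of all genes. DESeq2 on the same counts called both, against 2.74% of genes (438).

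Myh7 was measured at 243, 1587, 612 and 205 CPM in the controls and at 4388, 1845, 2794 and 1945 CPM in the knockouts. CRE 2 lay close under the lowest CS7KO heart, and the other 3 controls were far below. The means were 662 ± 644 and 2743 ± 1176 CPM (SD, n = 4 each), and the fitted difference was 4.44-fold (95% interval 1.61 to 12.2), a log2 fold change of 2.15 with SE 0.65. The unadjusted p was 0.00831 and the adjusted p 0.292 in edgeR's quasi-likelihood test with Benjamini-Hochberg adjustment, against 0.00936 in DESeq2.

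Myh6 was measured at 6313, 8817, 5590 and 6503 CPM in the controls and at 11193, 12253, 12979 and 16064 CPM in the knockouts. It varied little within a group, by at most 1.58-fold between libraries in CRE and 1.44-fold in CS7KO. The means of 6806 ± 1398 and 13122 ± 2094 CPM (SD, n = 4) gave a fitted 1.93-fold difference (95% interval 0.980 to 3.80; log2 0.95, SE 0.44). The adjusted p was 0.410 in edgeR and 0.0219 in DESeq2. The adult and the fetal heavy chain gene were thus both at higher values in CS7KO.

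In bulk tissue, fewer cardiomyocytes and less RNA per cardiomyocyte cannot be told apart. The summed level of 14 sarcomere genes shared by all cardiomyocytes ran from 11040 to 26261 CPM in CRE and from 23660 to 32166 CPM in CS7KO, with 13 of 14 fitted higher in CS7KO and 0 passing. Of 14 endothelial markers 12 were fitted lower in CS7KO, their sums ran from 3613 to 9246 CPM in CRE and from 2384 to 5575 CPM in CS7KO, 0 passed and none was at 0 in all libraries. Expressed per 100 counts of 6 sarcomere genes (Ttn, Mybpc3, Actn2, Tcap, Tnnt2 and Tnnc1), Myh7 was 4.33 ± 4.15 in CRE and 13.9 ± 5.38 in CS7KO (SD, n = 4), and the highest control, at 10.1, reached into the CS7KO range, which began at 9.33. Myh6 on that scale was 44.3 ± 15.1 and 67.1 ± 10.1, with the highest control at 56.1 and the lowest CS7KO heart at 53.4. Scaling the fit to these 6 genes gave log2 fold changes of 0.60 for Myh6 and 1.73 for Myh7 (edgeR adjusted p = 0.597 and 0.383). It moved the median of all genes to −0.29. Relative to that median the values were 0.89 and 2.02, but taking them so largely undoes the scaling. The main fit gave 0.92 for Myh6 and 2.12 for Myh7 relative to its own median. The part of cell make-up in the heavy chain differences was not tested beyond these values.

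Myh7 was also lowest in the controls that stood apart. Without CRE 1 and CRE 5, its log2 fold change was 1.48 (SE 0.51, edgeR adjusted p = 0.483), and that of Myh6 was 0.90. With CRE 3 and CRE 5 left out, the libraries richest in mitochondrial counts, the values were 1.72 for Myh7 and 0.57 for Myh6, both with an edgeR adjusted p of 0.816, beside a median of all genes of 0.16.

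**Figure D2:**
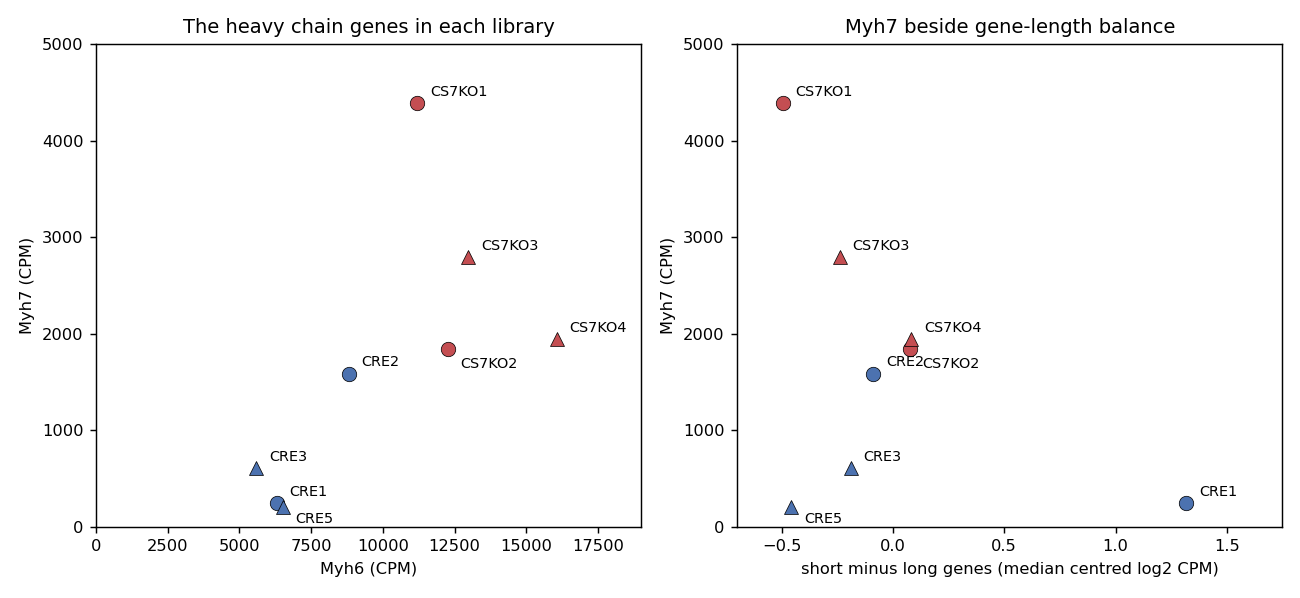
Left, Myh7 against Myh6 in CPM, 1 point per library; right, Myh7 in CPM against the difference between short and long genes in median centred log2 CPM. CS7KO hearts (red) lie to the upper right of the CRE hearts (blue) on the left, and on the right CRE 1 stands alone at 1.32 while CRE 5, at −0.46, has as little Myh7.

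Myh6 and Myh7 lie head to tail on chromosome 14, at 55179378 to 55204384 and 55208141 to 55232083 on the minus strand in the table's own coordinates, whose build could not be settled. Their transcripts are alike: 11.4% of the 100-base stretches of the Myh6 transcript and 13.9% of those of Myh7 also occur in another gene's transcript, the former all in Myh7, so reads from these stretches could be split between them. None of the other 8 members had a stretch of this length in common with another gene. The 250 bases before the start of each gene (RefSeq, GRCm38.p6) are shown because the pair sits in tandem and was higher together. Capitals mark an MCAT element (CATTCC on either strand), the element bound by TEAD factors in muscle genes. For Myh7 the farther upstream of 2 RefSeq starts is shown, since its window holds the element; the window of the other start held no MCAT element.
Myh6, chr14:54966608-54966857, minus strand: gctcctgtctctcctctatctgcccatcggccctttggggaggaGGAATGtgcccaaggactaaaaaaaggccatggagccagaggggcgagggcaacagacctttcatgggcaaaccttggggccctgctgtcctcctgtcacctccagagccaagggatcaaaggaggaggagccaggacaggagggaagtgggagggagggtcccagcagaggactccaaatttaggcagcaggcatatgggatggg
Myh7, chr14:54994627-54994876, minus strand: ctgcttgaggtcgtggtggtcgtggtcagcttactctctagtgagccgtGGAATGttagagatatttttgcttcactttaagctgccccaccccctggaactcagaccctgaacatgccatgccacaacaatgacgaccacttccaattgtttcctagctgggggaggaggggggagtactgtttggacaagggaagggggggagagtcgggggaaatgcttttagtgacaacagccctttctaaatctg
The element lay at positions −206 to −201 of Myh6 and −201 to −196 of Myh7, counted back from the start. MCAT occurred, on either strand, in 12.6% of all 32851 promoter windows of this length. The core of the Smad binding element, GTCT on either strand, matched 2 times in the Myh6 window 1 time in this Myh7 window and 3 times in that of the other start, and 82.9% of all windows held it.

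The beta chain made up 3.71%, 15.3%, 9.86% and 3.06% of the counts of Myh6 and Myh7 together in the controls. In the knockouts the share was 28.2%, 13.1%, 17.7% and 10.8%. CRE 2 lay above 2 of the CS7KO hearts, so the groups overlapped, and CS7KO 1 was far above all others. The means were 7.97% ± 5.74 and 17.4% ± 7.70 (SD, n = 4), which an exact two-sided permutation test over 70 assignments did not separate (p = 0.114, 0.238 adjusted over 5 shares); the smallest p that 4 against 4 allows is 0.0286. Corrected for the table's gene length the share was 6.38% ± 4.67 in CRE and 14.2% ± 6.58 in CS7KO. That length is 8616 bases for Myh7 and 6726 for Myh6. Their longest protein-coding transcripts in GENCODE M21 are nearly equal, at 6230 and 6113 bases, so this correction may be too large. Wilson 95% intervals on a library's share were at most 0.145 percentage points to either side and cover counting error only. The difference of 9.47 percentage points was 5.90 without CS7KO 1 and 4.88 without CRE 1 and CRE 5. Alpha chain message was in the majority in each of the 8 hearts.

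**Figure D3:**
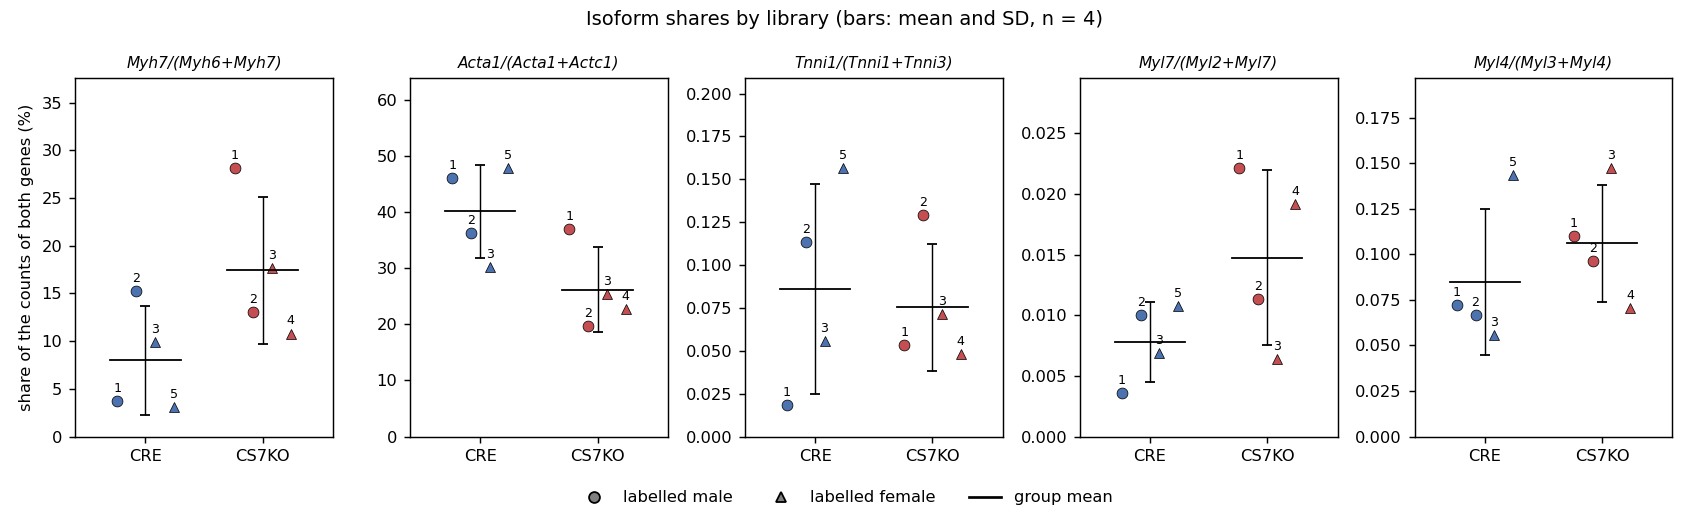
Share of the first-named gene in the counts of both genes of a pair, in percent, for each library, with the mean and SD of 4 hearts per group and circles and triangles for the labelled sexes. The beta chain share is 3.06% to 15.3% in CRE and 10.8% to 28.2% in CS7KO, the skeletal actin share 30.3% to 47.9% and 19.7% to 37.0%, and every pair of groups overlaps.

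Each heavy chain gene carries a microRNA in an intron: Mir208a in Myh6, Mir208b in Myh7 and Mir499 in Myh7b, and in the annotation none of the 3 overlaps an exon of its host. Their mature forms (RefSeq, GRCm38.p6) are printed to show what these loci encode; the table counts reads over the Mir208b gene, not mature miR-208b. Capitals mark the seed, bases 2 to 8.
mmu-miR-208a-3p: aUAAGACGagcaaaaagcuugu
mmu-miR-208b-3p: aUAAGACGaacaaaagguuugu
mmu-miR-499-5p: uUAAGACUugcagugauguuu
miR-208a and miR-208b have the same seed and 19 of 22 bases in common, and miR-499 has 6 of the 7 seed bases of both. The Mir208b row held 4.55, 2.83, 9.77 and 6.05 CPM in the controls and 0.927, 3.46, 3.99 and 1.23 CPM in the knockouts, so the groups overlapped. Its log2 fold change was −1.17 (SE 0.57, edgeR adjusted p = 0.429), opposite in sign to the 2.15 of Myh7. A polyA library does not capture mature microRNA, so reads over a hairpin come from longer transcripts, and the row held 22 to 276 counts per library. Relative to Myh7 these were 0.178% to 2.95% in CRE, with CRE 5 highest, and 0.0211% to 0.187% in CS7KO. Mhrt, an antisense RNA of the locus, had counts equal to 8.81%, 1.76%, 7.81% and 11.8% of those of Myh7 in the controls and 0.217%, 1.39%, 1.11% and 0.978% in the knockouts. It had a log2 fold change of −0.51 (SE 0.36, edgeR adjusted p = 0.605). The sources used here do not say whether counting used strand, so sense and antisense reads may be mixed. Mir208a had 0 to 19 counts per library and Mir499 0 or 1.

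Myh7b, an evolutionarily old slow-type myosin gene, was measured at 42.0, 27.7, 55.8 and 189 CPM in the controls and at 10.8, 60.2, 34.9 and 58.7 CPM in the knockouts. CRE 5 was the high library and CS7KO 1 the low one. The log2 fold change was −0.68 (SE 0.59, edgeR adjusted p = 0.682), and the overlapping opposite-strand gene Trpc4ap had 194% of its counts, so its level is uncertain. The fold change was −0.07 without CRE 5 and −1.50 without CS7KO 2 (edgeR adjusted p = 0.298).

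Both sarcomeric actin genes overlapped between groups. Acta1 was measured at 5990, 3416, 1360 and 881 CPM in the controls and at 4205, 1386, 1791 and 1851 CPM in the knockouts. The highest heart of each group was number 1, labelled male, and all CS7KO hearts lay within the control range. The log2 fold change was −0.02 (SE 0.53, 95% interval −1.20 to 1.15, edgeR adjusted p = 0.992), so a change of up to about 2.22-fold upward or down to 0.436-fold lies within the interval.

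Actc1 was measured at 6996, 5984, 3124 and 958 CPM in the controls and at 7166, 5655, 5256 and 6267 CPM in the knockouts. The CS7KO hearts lay within 1.36-fold of each other, the controls within 7.31-fold, and the low values were those of CRE 3 and CRE 5. The log2 fold change of 0.74 (SE 0.54, edgeR adjusted p = 0.617) became −0.06 without these 2 libraries.

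Skeletal actin made up 46.1%, 36.3%, 30.3% and 47.9% of the counts of both actins in the controls, and 37.0%, 19.7%, 25.4% and 22.8% in the knockouts. Only CS7KO 1 lay above any control. The share was 40.2% ± 8.31 in CRE and 26.2% ± 7.55 in CS7KO (SD, n = 4), a difference of −14.0 percentage points that an exact two-sided permutation test did not separate (p = 0.0857, 0.238 adjusted over 5 shares). CRE 1 and CRE 5, which stood apart, had the highest control shares. Without them the difference was −7.11 percentage points (exact permutation p = 0.333), and without CRE 3 and CRE 5 it was −15.0. The fetal actin thus held a lower mean share in CS7KO, whereas the fetal heavy chain held a higher one. Both shares were highest, within CS7KO, in CS7KO 1.

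The actin promoters are printed because both hold a CArG box, the element bound by SRF, which 1.47% of all windows hold. Capitals mark the CArG box and, in Acta1, also an MCAT element and a match to TATAAA, the letters of a TATA box.
Acta1, chr8:123894776-123895025, minus strand: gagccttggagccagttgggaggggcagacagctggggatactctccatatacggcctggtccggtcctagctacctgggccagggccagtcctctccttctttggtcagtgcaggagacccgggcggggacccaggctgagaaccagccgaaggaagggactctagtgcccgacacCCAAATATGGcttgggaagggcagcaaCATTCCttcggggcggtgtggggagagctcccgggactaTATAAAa
Actc1, chr2:114052876-114053125, minus strand: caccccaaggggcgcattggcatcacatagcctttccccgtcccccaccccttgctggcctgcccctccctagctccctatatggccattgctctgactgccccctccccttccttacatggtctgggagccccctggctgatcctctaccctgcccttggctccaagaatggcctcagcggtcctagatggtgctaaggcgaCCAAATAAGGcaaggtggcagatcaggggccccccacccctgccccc
The CArG box spans positions −73 to −64 in Acta1 and −47 to −38 in Actc1. In Acta1 the MCAT element lies at −46 to −41 and the TATAAA match at −7 to −2. TATAAA was found on either strand in 12.4% of windows. Whether the match acts as a TATA box at the annotated start was not tested. No matches overlapped each other in these 4 windows. Of the other members, the Myl7 window held a CArG box and an MCAT element, and the windows of Myh7b, Tnni1, Tnni3, Myl2 and Myl4 held neither.

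Troponin I message was almost wholly of the adult form. Tnni1 was measured at 1.28, 2.099, 1.59 and 2.30 CPM in the controls and at 0.716, 2.39, 1.20 and 1.18 CPM in the knockouts, which rests on 17 to 56 counts per library. Its share of both troponin I genes was 0.0859% ± 0.0613 in CRE and 0.0754% ± 0.0371 in CS7KO (SD, n = 4; exact two-sided permutation p = 0.8286). Wilson intervals were up to 0.0721 percentage points to either side. Tnni1 had a log2 fold change of −0.41 (SE 0.66, edgeR adjusted p = 0.850).

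Tnni3 was measured at 7041, 1849, 2871 and 1465 CPM in the controls and at 1339, 1852, 1686 and 2442 CPM in the knockouts. CRE 1 was far above every other library. The log2 fold change of −0.77 (SE 0.56, edgeR adjusted p = 0.608) was −0.08 without CRE 1 and −1.52 without CRE 3 and CRE 5. CRE 1 is the library in which short genes were high, and it had the highest control value of Acta1, Actc1, Myl2 and Tnni3. The table gives these genes 1536, 1618, 1950 and 2063 bases, against 6726 for Myh6 and 8616 for Myh7. Short genes were those under 2000 bases by the table's gene length, which puts Tnni3 outside that class. That length can exceed the message. The longest protein-coding transcript in the GENCODE M21 annotation has 912 bases for Tnni3 and 943 for Myl4. Myl4, of 4637 bases by the table's length, also had its highest control value in CRE 1, while Myl7, of 590 bases, did not. The part of gene length in these values was not tested.

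The ventricular light chain genes did not separate the groups. Myl2 was measured at 11197, 4027, 5641 and 2246 CPM in the controls and at 3424, 5648, 5065 and 7003 CPM in the knockouts. Both the highest and the lowest value belonged to controls, and the log2 fold change was −0.07 (SE 0.57, edgeR adjusted p = 0.978). Its essential light chain partner Myl3 behaved likewise, at 1679 to 9450 CPM in CRE and 3015 to 4832 CPM in CS7KO (log2 −0.02, SE 0.56, edgeR adjusted p = 0.995).

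The atrial light chain genes were low, and Myl7 was close to the limit that the depth allows. Myl4, with 20 to 266 counts per library, was measured at 6.85, 2.34, 1.77 and 2.42 CPM in the controls and at 3.33, 3.89, 5.71 and 3.41 CPM in the knockouts. CRE 1 was the highest of all, and the other 3 controls lay below every CS7KO heart. Its log2 fold change was 0.38 (SE 0.53, edgeR adjusted p = 0.825), and 0.96 without CRE 1 (adjusted p = 0.313). Its share of the essential light chain pair was 0.0847% ± 0.0400 in CRE and 0.106% ± 0.0321 in CS7KO (SD, n = 4; exact permutation p = 0.4, 0.5 adjusted over 5 shares). Noncoding genes on the opposite strand that overlap Myl4 had up to 10.1% of its counts, so part of its few reads may be theirs.

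Myl7 had 9, 10, 11 and 2 counts in the controls and 18, 15, 15 and 24 in the knockouts. In CPM these are 0.398, 0.404, 0.390 and 0.242 against 0.758, 0.641, 0.322 and 1.34, and CS7KO 3 fell inside the control range. A count of 3 corresponds to 0.0643 to 0.363 CPM across libraries, so the value of CRE 5 is under the limit that a count of 0 would allow. The log2 fold change was 1.05 (SE 0.91, edgeR adjusted p = 0.677). The Myl7 share of the regulatory light chain pair was 0.00781% ± 0.00330 and 0.0148% ± 0.00722 (SD, n = 4; exact permutation p = 0.143, 0.238 adjusted over 5 shares).

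Atrial markers were checked against the tissue label. The tissue is labelled whole heart, and several atrial markers were at or near 0, among them sarcolipin (Sln) at 0 to 0.322 CPM, the atrial growth factor Bmp10 at 0 to 0.744 CPM and Mybphl at 0.248 to 2.30 CPM. Nppa, the natriuretic peptide gene that atria express and loaded ventricles switch on, was at 113 to 1830 CPM in CRE and 2017 to 2717 CPM in CS7KO. Other markers of the same list were higher, with Clu at 154 to 1800 CPM, Kcna5 at 13.3 to 46.3 CPM, Dkk3 at 9.07 to 44.2 CPM, Nr2f2 at 6.54 to 37.8 CPM and Gja5 at 3.92 to 17.1 CPM. With Nppa included, the 15 atrial markers summed to 392 to 3398 CPM in CRE and 3453 to 4182 CPM in CS7KO. The ventricular Myl2 and Myl3 were at 1679 CPM or more in every library. Skeletal muscle markers summed to 8.95 to 16.1 CPM in CRE and 11.6 to 20.4 CPM in CS7KO, far below Acta1, and the skeletal Mylpf was at 0 to 3.15 CPM.

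Across the 10 members, 5 had fitted values higher in CS7KO and 5 lower, with a median log2 fold change of 0.18 beside 0.03 for all genes tested. The coefficient of variation was larger among controls for 8 of 10 members and for 86.6% of all genes tested, so the wider control spread was not particular to them. For Actc1 it was 64.4% in CRE and 13.7% in CS7KO, for Myh7 97.3% and 42.9%, and for Tnni3 77.4% and 25.2%; the exceptions were Tnni1 (25.6% and 52.2%) and Myl7 (21.7% and 55.7%).

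**Figure D4:**
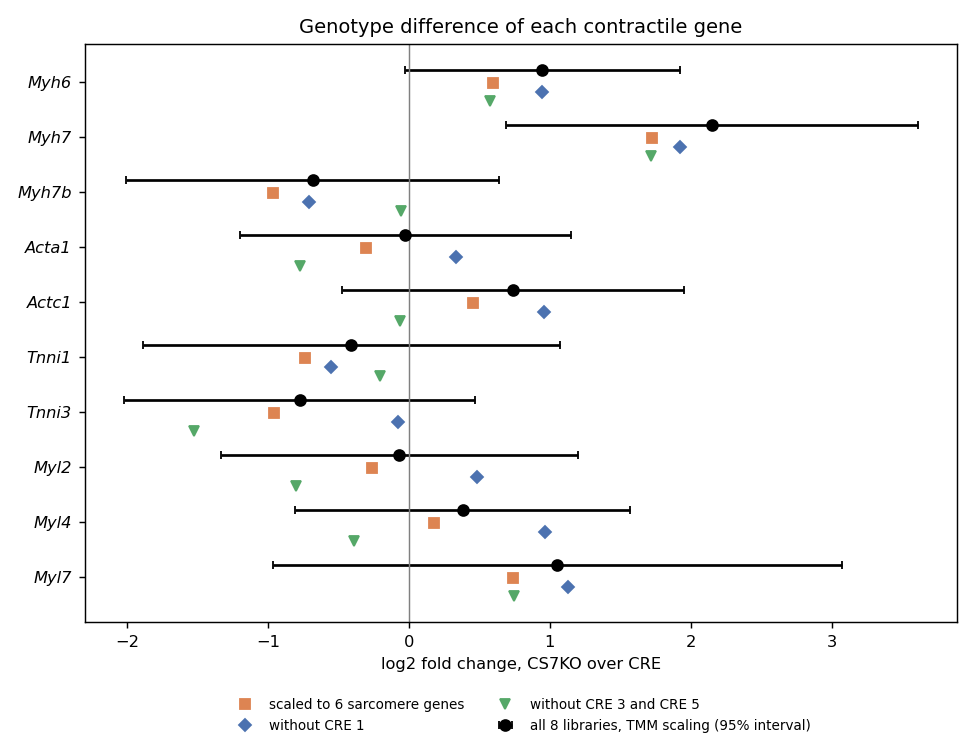
Log2 fold change of CS7KO over CRE for each gene, fitted on all 8 libraries (black, with 95% intervals) and scaled to 6 sarcomere genes or refitted without the control libraries named. Myh7 has an interval above 0 (0.69 to 3.61), the Myh6 interval starts at −0.03, and the points of Acta1, Actc1, Myl2 and Myl4 move across 0 when libraries are left out.

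The genotype difference was not shown to depend on the labelled sex. Myh7 differed by 2.20 (log2) between groups in males and 2.72 in females, and Myh6 by 0.65 and 1.26. The wider gaps were those of Actc1 (−0.02 in males, 1.73 in females) and Acta1 (−0.91 and 0.73), where the female controls are CRE 3 and CRE 5. The edgeR interaction test found 0 of 10 members and 0% of all genes past the threshold, and at an unadjusted p under 0.05 it found 0 members against 7.08% of genes. With 2 hearts per sex and genotype, intervals were wide: for Actc1 the interaction was 1.51 with a 95% interval of −0.52 to 3.55.

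Among 10099 protein-coding genes of at least 5 CPM on average, those whose mean-centred log2 CPM lay nearest to that of Myh7 over the 8 libraries were Vcl, which encodes vinculin (root mean square difference 0.333), Mapk4 (0.352) and Dnaja4 (0.353). Nearest to Myh6 were Satb1 (0.145), Dmxl2 (0.161) and Nudcd3 (0.170). For Acta1 they were the extracellular matrix genes Loxl1 (0.269) and Mfap4 (0.284) and the secreted glycoprotein gene Fstl1 (0.332). Those of Tnni1 were Ifit3 (0.257), Tubd1 (0.275) and Dlg4 (0.275), and those of Myl7 were Pkia (0.318), Hmgn2-ps (0.320) and Eif4e (0.333). Tnni1 held 17 to 56 counts per library and Myl7 2 to 24, so counting error enters their profiles more than those of Myh7, Myh6 and Acta1. The distances scale with how much a gene varies, since the SD of log2 CPM was 1.53 for Myh7 and 0.53 for Myh6.

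Other genes of the contractile apparatus passed the edgeR test in neither direction. DESeq2 called 3 of 15 thin filament genes, 3 of 14 shared sarcomere genes, 2 of 13 fetal programme genes and 2 of 32 regulators, against 2.74% of all genes. Of the 15 thin filament genes tested, 8 were fitted higher and 7 lower in CS7KO, with a median of 0.15. The 2 with the smallest p were Tmod1, which caps thin filament ends, at 14.4 to 105 CPM in CRE and 133 to 185 CPM in CS7KO (log2 2.09, SE 0.51, edgeR adjusted p = 0.274), and Tnnt1, slow skeletal troponin T, at 4.36 to 10.9 CPM and 1.90 to 3.67 CPM (log2 −1.63, SE 0.41, edgeR adjusted p = 0.280). Neither overlapped between groups, and the DESeq2 adjusted p was 0.00265 for Tmod1, 0.0203 for Tnnt1 and 0.00641 for the third gene called, Lmod2. The adult cardiac Tnnt2 had a log2 fold change of 0.15, and is given as the adult counterpart of Tnnt1.

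Of 6 other myosin genes tested, 2 were fitted higher and 4 lower, and both myosin light chain kinase genes of the same list, Mylk3 and Mylk4, were fitted higher (log2 1.52 and 1.02). DESeq2 called Mylk3 (adjusted p = 0.0463). Myh14, a non-muscle heavy chain gene, had a log2 fold change of 1.04 and Myl6, a non-muscle and smooth muscle light chain gene, of −1.11, both with an edgeR adjusted p of 0.295. Among the 14 shared sarcomere genes the smallest p values belonged to Myom2, an M-band protein gene, with a log2 fold change of 1.65 (SE 0.53), and Des, the desmin gene, with 1.13 (SE 0.43). Their adjusted p values were 0.295 and 0.338 in edgeR and 0.0164 and 0.0299 in DESeq2, which also called Myom1 (0.0387).

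Fetal programme genes outside the sarcomere were mostly fitted higher in CS7KO, 12 of 13 tested, with a median log2 fold change of 0.94 and 0 passing. The list sets no direction for its genes, and Atp2a2 (0.76) is among those fitted higher. The shared sarcomere genes were also mostly fitted higher, 13 of 14 with a median of 0.57, so the direction was not particular to the fetal programme list. Slc8a1, the sodium-calcium exchanger gene, was at 72.9 to 318 CPM in CRE and 326 to 548 CPM in CS7KO (log2 1.28, SE 0.38, adjusted p = 0.291 in edgeR and 0.0234 in DESeq2). Ccn2, which encodes connective tissue growth factor, had a log2 fold change of 1.27 (SE 0.39, adjusted p = 0.295 in edgeR and 0.0233 in DESeq2). The summed level of the fetal programme genes ran from 3486 to 16245 CPM in CRE and from 15357 to 23819 CPM in CS7KO, with CRE 3 and CRE 5 the low libraries.

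Of 32 regulators of isoform choice tested, 20 were fitted higher and 12 lower (median 0.14), and 0 passed. Myocd, the SRF coactivator myocardin, was measured at 3.18, 15.9, 9.49 and 7.74 CPM in the controls and at 43.4, 25.8, 30.8 and 32.5 CPM in the knockouts (log2 1.86, SE 0.44, adjusted p = 0.274 in edgeR and 0.00688 in DESeq2). Srf was measured at 49.0, 63.3, 29.9 and 27.9 CPM in CRE and at 96.7, 73.3, 63.4 and 68.9 CPM in CS7KO (log2 0.89, SE 0.25, adjusted p = 0.291 in edgeR and 0.0363 in DESeq2). Neither gene overlapped between groups.

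Markers of the remaining cell types passed the edgeR test in neither direction, nor did the 13 atrial and 12 ventricular markers tested. DESeq2 called 3 of 14 endothelial and 2 of 10 smooth muscle markers, against 2.74% of all genes. The smooth muscle calls include Des, which is also on the shared sarcomere list. Among atrial markers Gja5, a connexin gene, had a log2 fold change of −1.15 (SE 0.32) and Adm of 1.80 (SE 0.68). Among ventricular markers Lbh had 1.21 and Prss23 −0.46. Synpo2 (1.30) and Actg2 (−2.39) led the 10 smooth muscle markers, Tek (−1.15) and Ly6c1 (−1.54) the endothelial ones. Of 12 fibroblast markers 8 were fitted lower, led by Dpt (−1.05) and Pi16 (−0.82), and of 12 macrophage markers 11, led by Fcgr1 (−0.63) and Cx3cr1 (−0.89). In skeletal muscle markers Actn3 (1.32) and Cacna1s (1.25) had the smallest p, from at most 2.35 CPM.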

How the data were processed

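PolyA RNA of 8 whole mouse hearts, 4 per genotype, was sequenced, and the authors deposited a table of raw counts per gene with a gene length column. HTSeq 0.6.1, TopHat2 2.0, CASAVA and Cufflinks 2.1.1 are listed, with GRCm38.p6 and mm10 as builds, in the processing notes of the submitters, with no role or order. The table's gene coordinates equal those of GENCODE M21 (GRCm38.p6) for 2.83% of 52073 matched genes and for 0 contractile genes, so its build is not settled and it was not mixed with the RefSeq windows. Read strand, aligner settings and annotation are not given in the sources used here. Nothing in the labels states more than independent samples, so p-values measure the spread between these hearts.

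Counts were tested in R 4.3.3 with edgeR 4.0.16: filterByExpr (at least 10 counts, 15 in total), TMM scaling, a robust quasi-likelihood fit with labelled sex and genotype, and Benjamini-Hochberg adjustment over 16002 genes at 0.05. DESeq2 1.42.0 and limma 3.58.1 (voom) were alternatives, with other filters, scalings, a replicate block and libraries left out. CPM values use TMM library sizes. Log2 CPM used a prior count of 2. Shares of 2 genes were compared with exact permutation tests (scipy 1.17.1), with 95% Wilson intervals that, like the floor of 3 counts, cover counting error only. The edgeR step was checked on simulated counts. Same-numbered hearts of the 2 groups came from different animals, and no pair of libraries within a group agreed within counting noise (chi-square per degree of freedom 9.58 to 1047). Named genes are all members with Myl3 and Smad7, the 3 nearest genes of 5 members, and of each list the 2 tested genes with the smallest p, with Sln, Bmp10, Mybphl, Nppa, Clu, Kcna5, Dkk3, Nr2f2, Mylpf, Mylk3, Mylk4, Tnnt2, Lmod2 and Myom1 added after their values were seen. The members and lists were chosen with earlier results of these data known.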

Additional observations from a re-analysis of the deposited data

Results flagged for a closer look

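In 3 of 30 groups of 4 libraries checked, 1 library lay far from the other 3 by Dixon's gap ratio, and chance flags about 1 in 20 groups. Acta1 in CS7KO 1 stood at 4205 CPM where the other CS7KO hearts had 1386 to 1851. Myl4 in CRE 1 stood at 6.85 CPM where the other controls had 1.77 to 2.42. CRE 1 is the library whose short genes were high and which had 537 genes with 1 to 9 counts. Myl4 has 4637 bases by the table's gene length and so was not classed among the short genes (under 2000 bases). Its longest protein-coding transcript in GENCODE M21 has 943 bases. Myl7 in CRE 5 stood at 0.242 CPM, from 2 counts, where the other controls had 0.390 to 0.404, and CRE 5 is the library with 69.8% mitochondrial counts. The part of library quality in these values was not tested.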

How the results depend on the processing

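Myh6, Myh7, Tnni1, Tnni3 and Myl7 kept the sign of their fold change under the alternatives run, except that Myl7 was not tested under the strict filter, within 0.57 to 1.12, 1.48 to 2.97, −0.91 to −0.19, −1.52 to −0.08 and 0.44 to 1.31 (log2). The number of members passing was 2 with DESeq2 and 1, Myh7, with no filter on low counts, and 0 otherwise. For all genes, 438 passed with DESeq2, 338 of 48657 with no filter, which moved the median of all genes to 0.57, 2 with the replicate block, 16 without CRE 1 and 5 and 3 without CRE 3 and 5; leaving out 1 library gave 3 (without CS7KO 3) to 14 (without CRE 1). Acta1 changed sign with DESeq2 size factors (0.000622), DESeq2 (0.000607), voom (0.041), no filter (0.11), mitochondrial genes removed (0.034) and without CRE 1 and 5 (0.11), Myl3 in the same settings (0.00181, 0.00203, 0.18, 0.12, 0.033 and 0.26), and Myl2 with voom (0.15), no filter (0.070) and without CRE 1 and 5 (0.18). Leaving out 1 library gave −0.27 to 0.37 for Acta1, −0.36 to 0.54 for Myl3 and −0.40 to 0.48 for Myl2. Without CRE 1 and 5 Myh7b was 0.080, and without CRE 3 and 5 Actc1 was −0.063 and Myl4 −0.39. The Tnni1 share difference, −0.0105 percentage points, was 0.0222 with the replicate block, 0.00965 without CRE 3 and 5, −0.0331 to 0.0131 without 1 library, and its log2 ratio was 0.10. The Myl7 share difference was 0.00448 to 0.00974 without 1 library. Without CS7KO 3, the only CS7KO heart whose share lay inside the control range, the exact permutation p was 0.0286, not adjusted over the shares or the alternatives. The other shares kept their direction, with unadjusted exact permutation p values of 0.0571 to 0.533 for the beta chain share and 0.0571 to 0.333 for the actin share. The cause of these moves was not tested. Replicate numbers 1 to 3 occur in both groups, and the labels state no pairing. Same-numbered hearts deviated together in 1 of 3 pairs (r = 0.042, −0.088 and 0.352), too few to tell whether they share a batch. With the replicate block Myh7 was 2.19 (edgeR adjusted p = 0.923) and 0 members passed. The Myh7 share difference was then 10.05 and the Acta1 share difference −10.2 percentage points. Depth limits Tnni1 and Myl7, at 2 to 56 counts per library, most.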
